A study of Mus musculus with 12 samples.

Results

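Collagens are the triple-helical proteins of the extracellular matrix. The rule took every gene whose symbol has the form of a collagen chain (Col, a type number, a, a chain number) and is the only gene annotated to a probe set, and it found 42 such genes among 18193 genes on the array. They were read by 82 probe sets, with 1 probe set for 15 genes and several for 27. Each gene was represented by its probe set with the highest mean over the 12 arrays. To be tested, a probe set had to exceed a log2 signal of 3.35, the median over the whole table, in at least 3 arrays. That left 31 of the 42 collagen genes, of 11804 genes in all. The 11 collagens under the filter were Col2a1, Col11a2, Col4a3, Col6a4, Col6a5, Col7a1, Col9a2, Col10a1, Col17a1, Col19a1 and Col22a1. The tested collagen nearest the filter was Col25a1, whose value of rank 3 was 3.63, and the untested one nearest to it was Col6a5, at 2.85.

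Each collagen molecule is a triple helix of chains that may come from a single gene or from several. Fibrillar collagens assemble into the tensile fibres between heart muscle cells, where fibroblasts make most of them. Type IV collagen forms the sheet-like network of basement membranes, and the fibril-associated, beaded-filament, network-forming and transmembrane types decorate fibrils, join them to cells or sit in the cell membrane. In the heart, the matrix is laid down rapidly around birth, and collagen is what accumulates when the heart scars.

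The study profiled whole hearts of mice of the outbred CD1 stock that expressed a dominant-negative form of MCU (DN-MCU), the pore subunit of the mitochondrial calcium uniporter, and of wild-type (WT) littermates. The groups were WT adult and DN-MCU adult, at 42 days and labelled male, and WT neonate and DN-MCU neonate, at 1 day and of unknown sex. Each group had 3 arrays, labelled as separate biological replicates, made from 500 ng of total RNA. Which promoter drives the transgene was not stated in the labels. Age and the sex labels cannot be told apart in the comparison of ages. All values are log2 signals and are listed in the order of the replicate numbers. A difference is the first group minus the second, and a level is never compared between genes, since probe sets bind with different strength. Between ages, a rise or fall is the neonatal level set against the adult level, and not a change in the course of time.

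The labels were checked first. One Mcu probe set lay between 8.44 and 10.41 in the 6 DN-MCU arrays and between 2.45 and 4.55 in the 6 WT arrays, so its groups did not overlap; the other lay between 7.39 and 8.18 in all arrays. Means of 8 cardiomyocyte markers lay between 14.27 and 14.81 in every array. Array medians were 3.24 to 3.46. Neonatal arrays correlated with their group at 0.991 to 0.993, and adult arrays at 0.931 to 0.981, with DN-MCU adult 3 the lowest and WT adult 1 the lowest of the WT adults. The median SD of the 31 tested collagens was 0.36 in adult WT, 0.40 in adult DN-MCU, 0.20 in neonatal WT and 0.19 in neonatal DN-MCU hearts. With 3 arrays a group, precision is limited throughout.

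The collagens were mostly higher in neonatal than in adult hearts, in both genotypes. In WT hearts 21 of the 31 were higher in neonates, 2 were lower and 8 did not pass; over all genes tested 27.8% were higher and 17.2% lower. The median difference of the 31 was 1.02, against 0.16 over all genes. In DN-MCU hearts 17 were higher, 2 lower and 12 did not pass, with 29.1% of all genes higher and 17.6% lower, and the medians were 0.84 and 0.17. The ages did not overlap for 22 higher and 3 lower collagens in WT hearts (41.5% and 25.6% of all genes) and for 19 and 3 in DN-MCU hearts (35.2% and 21.7%). Between the genotypes 18 of these calls were shared, 5 were made in WT hearts only and 1 in DN-MCU hearts only. Between DN-MCU and WT hearts none of the 31 passed the threshold at either age. A gene dim in adults could pass the filter through the neonates alone: this holds for Col11a1, Col13a1, Col25a1 and Col26a1, which exceeded the filter level in at most 1 of the 6 adult arrays and so were tested because they were high in neonates. Without these, 17 of 27 collagens were higher and 2 lower in WT hearts, and 14 and 2 in DN-MCU hearts, with medians of 0.89 and 0.66. Over the 11163 genes that exceeded the filter level in more than 1 array at each age, 27.4% were higher and 16.9% lower in WT hearts, and 28.7% and 17.3% in DN-MCU hearts. In whole hearts, a change in the number of cells that make a collagen and a change in its RNA per cell cannot be told apart.

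**Figure D1:**
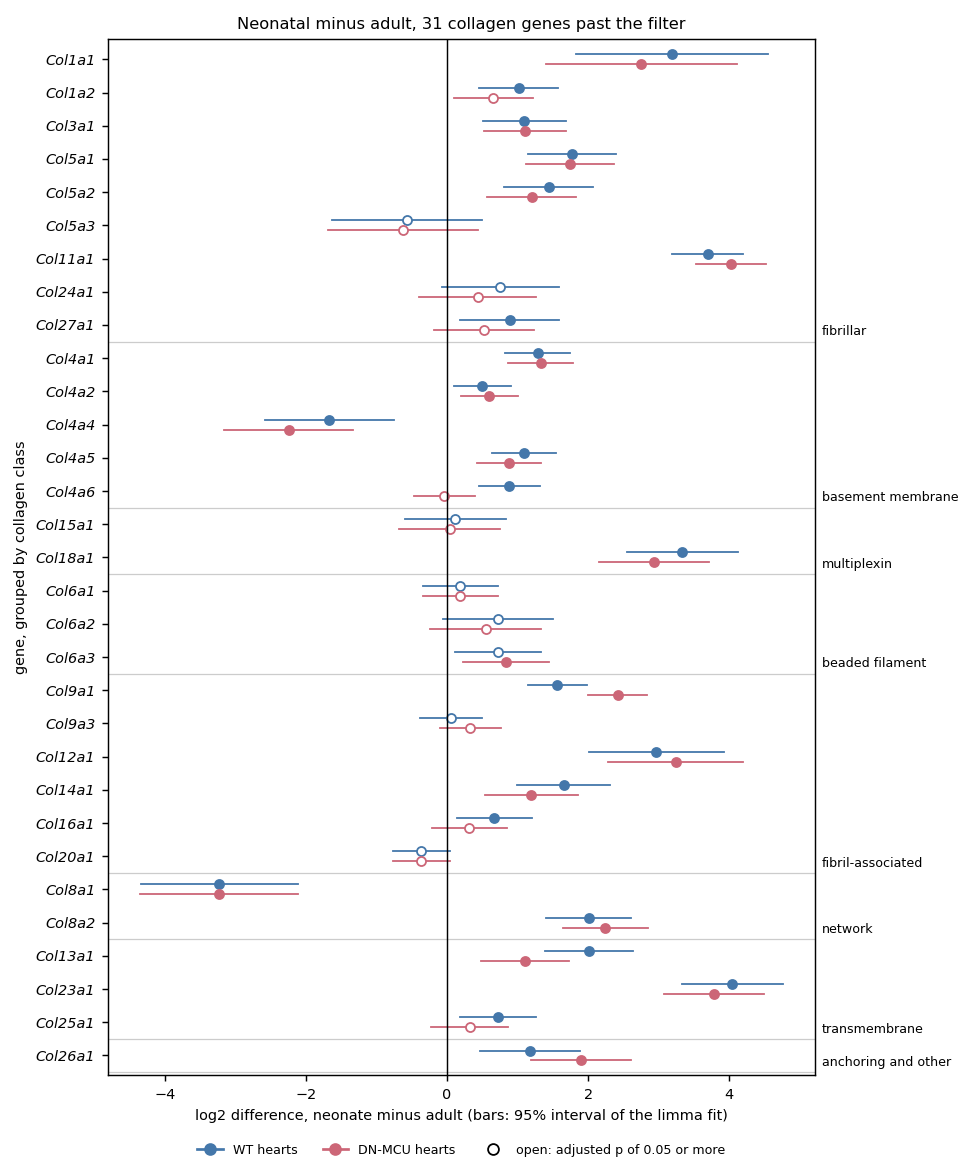
Log2 difference between neonatal and adult hearts for each of the 31 tested collagen genes, grouped by class, in WT (blue) and DN-MCU (red) hearts; points are limma estimates, bars their 95% intervals, and open points did not pass. Most points lie right of 0, and Col8a1 and Col4a4 lie left of it in both genotypes with filled points.

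Fibrillar collagens formed the class with the most tested members, 9 of the 11 on the array. Of these 9, 7 were higher in neonates than adults in WT hearts and 5 in DN-MCU hearts, and none was lower. Both counts include Col11a1, which entered the test through the neonates. Col1a1 and Col1a2 encode the chains of type I collagen, the main fibre of the heart. Col1a1 signals were 9.78, 7.37 and 8.07 in adult WT, 9.37, 7.51 and 9.49 in adult DN-MCU, 11.47, 11.98 and 11.36 in neonatal WT and 11.63, 11.64 and 11.37 in neonatal DN-MCU hearts. Every neonatal array lay above every adult array, and the adults scattered widely, with WT adult 1 and DN-MCU adults 1 and 3 high. The difference was 3.19 (SE 0.61, adjusted p = 0.00167) in WT hearts, a 9.14-fold rise, and 2.75 (SE 0.61, adjusted p = 0.00421) in DN-MCU hearts. Its other probe set gave a smaller difference, 1.69 (SE 0.38) in WT hearts, which passed, and 0.91 (SE 0.38, adjusted p = 0.0739) in DN-MCU hearts, which did not.

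For Col1a2 the signals were 12.91, 12.45 and 12.32 in adult WT, 13.27, 12.29 and 12.72 in adult DN-MCU, 13.48, 13.82 and 13.43 in neonatal WT and 13.50, 13.55 and 13.20 in neonatal DN-MCU hearts. The WT groups did not overlap, whereas DN-MCU adult 1 lay above DN-MCU neonate 3. The difference was 1.02 (SE 0.25, adjusted p = 0.00739) in WT hearts and 0.66 (SE 0.25, adjusted p = 0.0539) in DN-MCU hearts, where it missed the threshold. The second Col1a2 probe set, dimmer in adults, gave 2.58 (SE 0.40, adjusted p = 0.00045) and 2.03 (SE 0.40, adjusted p = 0.00213), so that it passed in both.

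Col3a1, the chain of type III collagen that makes thin pliable fibres with type I, read 14.41, 13.72 and 13.73 in adult WT, 14.52, 13.62 and 13.57 in adult DN-MCU, 15.06, 15.12 and 14.95 in neonatal WT and 15.09, 15.09 and 14.84 in neonatal DN-MCU hearts. Ages did not overlap in either genotype. Its differences were 1.09 (SE 0.27, adjusted p = 0.00658) and 1.10 (SE 0.27, adjusted p = 0.00635) in WT and DN-MCU hearts. The dimmer Col3a1 probe set gave 2.83 (SE 0.41) and 2.68 (SE 0.41). The size of a rise thus depended on the probe set, while its direction did not.

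Type V collagen nucleates the fibrils of type I. Col5a1 signals were 10.30, 9.62 and 9.44 in adult WT, 9.94, 9.30 and 10.41 in adult DN-MCU, 11.46, 11.73 and 11.49 in neonatal WT and 11.62, 11.67 and 11.58 in neonatal DN-MCU hearts, and the ages did not overlap. Its differences were 1.77 (SE 0.28, adjusted p = 0.000489) and 1.74 (SE 0.28, adjusted p = 0.000577). Of its other probe sets, one gave 1.62 (SE 0.29, adjusted p = 0.00109) and 0.82 (SE 0.29, adjusted p = 0.0408), and one passed in neither genotype, at 0.93 (SE 0.39, adjusted p = 0.0748) and 0.75 (SE 0.39, adjusted p = 0.139). Col5a2 signals were 11.10, 10.27 and 10.21 in adult WT, 11.22, 10.28 and 10.45 in adult DN-MCU, 12.02, 11.97 and 11.90 in neonatal WT and 12.05, 11.88 and 11.60 in neonatal DN-MCU hearts, again without overlap. The Col5a2 differences were 1.44 (SE 0.29, adjusted p = 0.00202) and 1.20 (SE 0.29, adjusted p = 0.00607). Its dimmer probe set gave larger ones, 2.87 (SE 0.33) and 2.95 (SE 0.33). The remaining type V chain, Col5a3, went the other way without passing, with -0.57 (SE 0.48, adjusted p = 0.364) and -0.63 (SE 0.48, adjusted p = 0.304), and its adult arrays ran from 4.33 to 6.41.

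Col11a1, which joins type V in thin fibrils and is best known from cartilage, was detected in neonates and near background in adults. Its signals were 3.42, 3.21 and 3.01 in adult WT, 3.33, 3.06 and 3.28 in adult DN-MCU, 6.53, 7.43 and 6.77 in neonatal WT and 7.03, 7.37 and 7.36 in neonatal DN-MCU hearts. Adult arrays sat at the level of the filter, and all neonatal arrays lay far above them. The difference was 3.69 (SE 0.23, adjusted p = 6.54e-07) in WT and 4.03 (SE 0.23, adjusted p = 3.87e-07) in DN-MCU hearts. Against an adult signal near background, the size of this difference is not a measure of the change, so no fold or rank is given. Col2a1 and Col11a2, the cartilage partners of this chain, stayed at or under 2.48 in all 12 arrays. Of the cartilage markers, Acan, Matn1, Matn3 and Snorc were under the filter, Comp and Cnmd were lower in neonates in both genotypes, Hapln1 was higher in both, and Sox9 passed as higher in DN-MCU hearts, at 0.70, and not in WT hearts, at 0.30.

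Both remaining fibrillar chains, of types XXIV and XXVII, are less studied in heart. Col27a1 read 3.88, 5.16 and 5.21 in adult WT, 5.02, 5.10 and 5.40 in adult DN-MCU, 5.53, 5.93 and 5.44 in neonatal WT and 5.73, 5.87 and 5.48 in neonatal DN-MCU hearts, with WT adult 1 alone at 3.88. Its difference passed in WT hearts, 0.89 (SE 0.32, adjusted p = 0.0425), and not in DN-MCU hearts, 0.52 (SE 0.32, adjusted p = 0.2). A second Col27a1 probe set passed in both, at 0.90 (SE 0.24, adjusted p = 0.0104) and 1.40 (SE 0.24, adjusted p = 0.000787). Without WT adult 1 the WT difference of the first probe set was 0.45 (adjusted p = 0.0973), and the call was also lost without DN-MCU adult 1 or 2 or without any 1 neonatal array. Col24a1 differed by 0.75 (SE 0.37, adjusted p = 0.127) in WT and 0.44 (SE 0.37, adjusted p = 0.359) in DN-MCU hearts; the neonatal arrays with replicate number 2, at 5.26 and 4.39, were far above the rest.

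**Figure D2:**
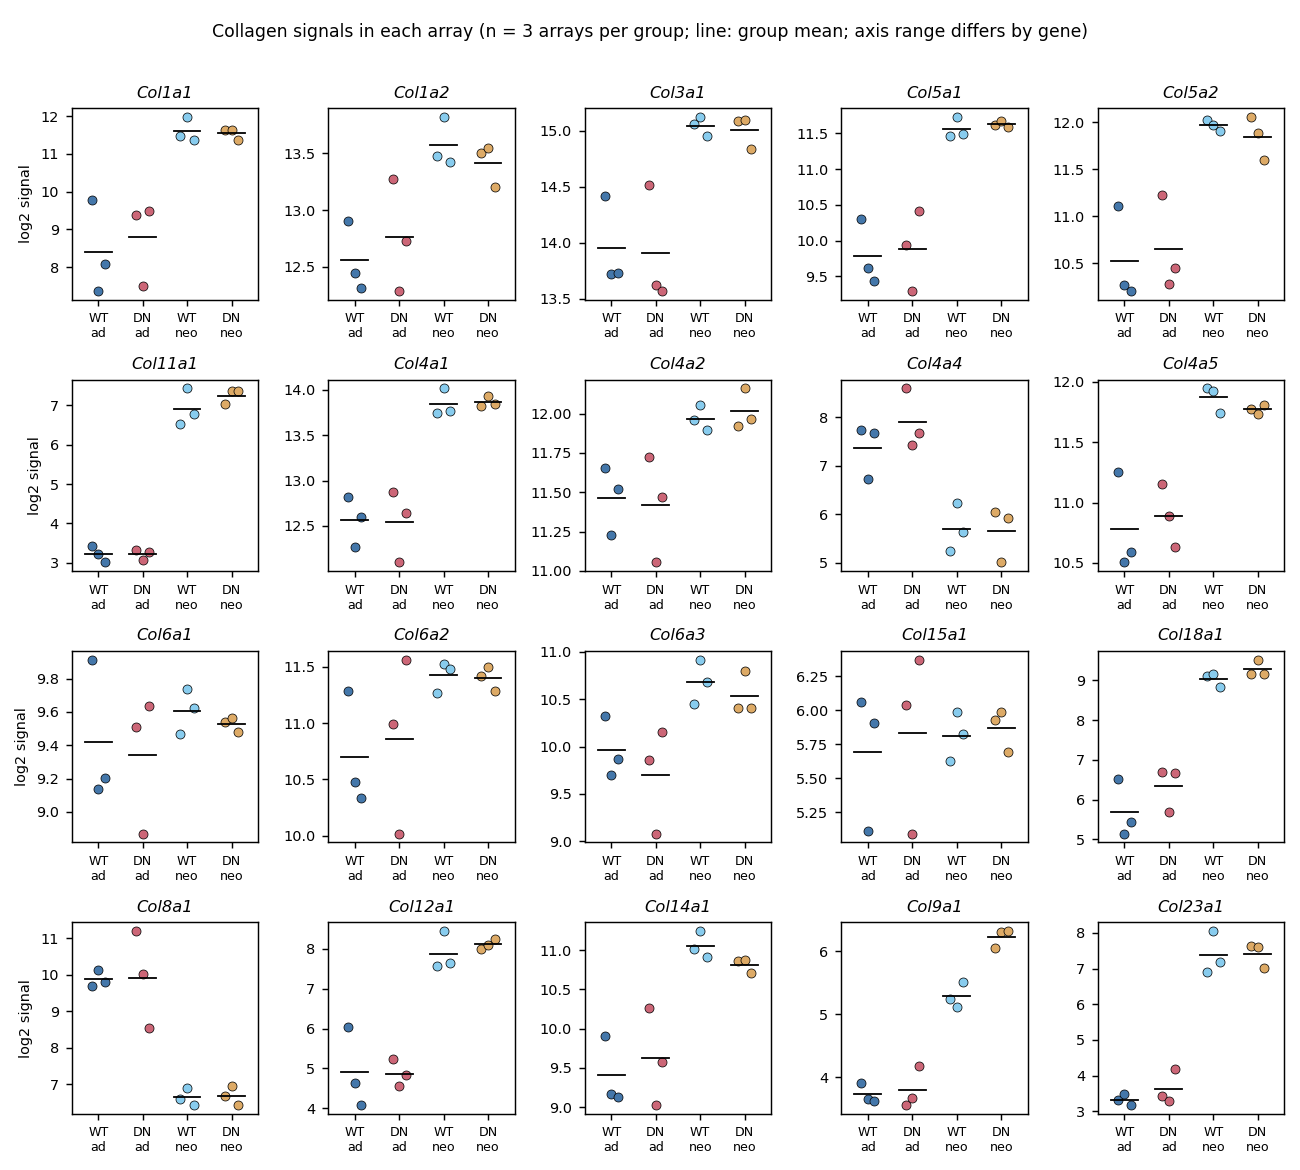
Log2 signal of 20 collagen genes in each of the 12 arrays, as points by group (ad, adult; neo, neonate; DN, DN-MCU) with the group mean as a line; each panel has its own axis range. The neonatal points sit above the adult points for most genes, Col8a1 and Col4a4 are reversed, and the adult points are the more scattered.

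Type IV collagen, the network of the basement membrane around muscle cells and capillaries, had 5 of 6 chains tested. In WT hearts 4 were higher in neonates and 1 lower; in DN-MCU hearts these numbers were 3 and 1. Col4a1 and Col4a2 encode the ubiquitous network. Col4a1 signals were 12.82, 12.27 and 12.60 in adult WT, 12.88, 12.10 and 12.64 in adult DN-MCU, 13.75, 14.02 and 13.77 in neonatal WT and 13.83, 13.93 and 13.85 in neonatal DN-MCU hearts, with no overlap of ages. Its differences were 1.28 (SE 0.21, adjusted p = 0.000582) and 1.33 (SE 0.21, adjusted p = 0.000487). Its other probe set passed in WT hearts, at 0.70 (SE 0.22, adjusted p = 0.024), and not in DN-MCU hearts, at 0.36 (SE 0.22, adjusted p = 0.205), where the ages overlapped. Col4a2 signals were 11.65, 11.23 and 11.52 in adult WT, 11.73, 11.06 and 11.47 in adult DN-MCU, 11.96, 12.05 and 11.89 in neonatal WT and 11.92, 12.16 and 11.97 in neonatal DN-MCU hearts. The Col4a2 ages also did not overlap, but its differences were smaller, 0.50 (SE 0.18, adjusted p = 0.0462) and 0.60 (SE 0.18, adjusted p = 0.0216), and the calls were the least stable of the class. Leaving out WT adult 2 gave 0.38 (adjusted p = 0.162), and the WT call was also lost without WT adult 3 or any 1 neonatal array of either genotype. The DN-MCU call was lost without DN-MCU adult 2, at 0.42 (adjusted p = 0.0694), or DN-MCU neonate 2, at 0.53 (adjusted p = 0.0776).

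Both genes start within 1 short stretch, on opposite strands, and all of it is shown because both starts lie in it. Their start sites in the RefSeq annotation of GRCm38.p6 lie 21 bases apart, at chr8:11312805-11312826; capitals mark GGGCGG, the letters of a GC box, on the strand of Col4a2.
Col4a1 and Col4a2: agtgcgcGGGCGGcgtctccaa

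Col4a5 and Col4a6, chains of basement membranes in skin and smooth muscle among others, form another pair on opposite strands, with starts 1343 bases apart. Col4a5 read 11.25, 10.51 and 10.59 in adult WT, 11.15, 10.89 and 10.63 in adult DN-MCU, 11.94, 11.93 and 11.74 in neonatal WT and 11.77, 11.73 and 11.81 in neonatal DN-MCU hearts. It was higher in neonates in both genotypes, by 1.09 (SE 0.20, adjusted p = 0.00148) and 0.88 (SE 0.20, adjusted p = 0.00535). Col4a6 read 5.12, 4.29 and 4.85 in adult WT, 5.23, 4.94 and 5.21 in adult DN-MCU, 5.57, 5.70 and 5.65 in neonatal WT and 5.12, 5.0 and 5.15 in neonatal DN-MCU hearts. WT neonates were above all other arrays, while DN-MCU neonates lay among the adults. Its age difference was 0.88 (SE 0.19, adjusted p = 0.00361) in WT and -0.04 (SE 0.19, adjusted p = 0.891) in DN-MCU hearts. The difference between these, -0.92 (SE 0.27, adjusted p = 0.235), did not pass, and the second Col4a6 probe set gave 0.53 (SE 0.30) and 0.45 (SE 0.30), neither passing, so the pattern rests on 1 probe set.

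Col4a4, a chain of the network best known from the kidney filter, was lower in neonates. Its signals were 7.74, 6.72 and 7.67 in adult WT, 8.60, 7.44 and 7.69 in adult DN-MCU, 5.24, 6.23 and 5.64 in neonatal WT and 6.05, 5.01 and 5.92 in neonatal DN-MCU hearts. No neonatal array reached any adult array of its genotype. The differences were -1.67 (SE 0.41, adjusted p = 0.00734) and -2.25 (SE 0.41, adjusted p = 0.00134); a second probe set gave -2.11 (SE 0.49) and -2.54 (SE 0.49), and a dim one gave -0.14 (SE 0.20) and -0.45 (SE 0.20), not passing. Its network partner Col4a3 was under the filter, with 1 array, DN-MCU adult 1, at 4.82 and the others between 2.65 and 3.15.

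The multiplexins Col15a1 and Col18a1 sit at the outer face of basement membranes, and their ends are cut to the fragments restin and endostatin. Col18a1 signals were 6.51, 5.15 and 5.44 in adult WT, 6.69, 5.70 and 6.67 in adult DN-MCU, 9.10, 9.16 and 8.84 in neonatal WT and 9.16, 9.52 and 9.17 in neonatal DN-MCU hearts, and all neonates lay above all adults. It rose by 3.33 (SE 0.35, adjusted p = 3.20e-05) in WT and 2.93 (SE 0.35, adjusted p = 8.13e-05) in DN-MCU hearts, 10.1-fold and 7.63-fold. The other Col18a1 probe set gave 4.17 (SE 0.32) and 3.53 (SE 0.32). Col15a1 signals were 6.06, 5.12 and 5.91 in adult WT, 6.04, 5.09 and 6.37 in adult DN-MCU, 5.63, 5.99 and 5.82 in neonatal WT and 5.93, 5.99 and 5.69 in neonatal DN-MCU hearts, with the ages mixed. Its differences, 0.12 (SE 0.33, adjusted p = 0.8) and 0.04 (SE 0.33, adjusted p = 0.937), did not pass.

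Type VI collagen forms beaded filaments that link cells to the fibres, and 3 of its 5 chains on the array were tested. None passed in WT hearts, and Col6a3 alone passed in DN-MCU hearts. Col6a1 signals were 9.91, 9.14 and 9.21 in adult WT, 9.51, 8.87 and 9.64 in adult DN-MCU, 9.47, 9.74 and 9.62 in neonatal WT and 9.54, 9.56 and 9.48 in neonatal DN-MCU hearts, and the ages overlapped. The Col6a1 differences were 0.19 (SE 0.24, adjusted p = 0.556) and 0.19 (SE 0.24, adjusted p = 0.546). Col6a2 signals were 11.28, 10.48 and 10.33 in adult WT, 10.99, 10.02 and 11.56 in adult DN-MCU, 11.27, 11.53 and 11.48 in neonatal WT and 11.42, 11.50 and 11.29 in neonatal DN-MCU hearts, with DN-MCU adult 3 the highest of all 12 arrays. Differences for Col6a2 were 0.73 (SE 0.35, adjusted p = 0.119) and 0.55 (SE 0.35, adjusted p = 0.227). Col6a3 signals were 10.32, 9.70 and 9.87 in adult WT, 9.85, 9.08 and 10.16 in adult DN-MCU, 10.45, 10.92 and 10.68 in neonatal WT and 10.40, 10.79 and 10.41 in neonatal DN-MCU hearts, with neonates above adults in each genotype. Its differences were 0.72 (SE 0.28, adjusted p = 0.0546) and 0.84 (SE 0.28, adjusted p = 0.0292). Leaving out DN-MCU adult 2, the DN-MCU difference was 0.53 (adjusted p = 0.0902). That call was also lost without any 1 DN-MCU neonate. The intervals of the WT differences, -0.34 to 0.72 for Col6a1 and -0.06 to 1.51 for Col6a2, do not show that the levels were equal.

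Fibril-associated collagens attach to the surface of fibrils and bind other matrix proteins. Of 6 tested, 4 were higher in neonates in WT hearts and 3 in DN-MCU hearts. Col12a1 read 6.04, 4.63 and 4.08 in adult WT, 5.22, 4.55 and 4.83 in adult DN-MCU, 7.56, 8.44 and 7.64 in neonatal WT and 8.0, 8.09 and 8.26 in neonatal DN-MCU hearts, without overlap. Its differences were 2.96 (SE 0.43, adjusted p = 0.000279) and 3.24 (SE 0.43, adjusted p = 0.000159); a second, dim probe set gave 0.47 (SE 0.22) and 0.08 (SE 0.22), not passing. Col14a1 read 9.91, 9.16 and 9.13 in adult WT, 10.26, 9.03 and 9.57 in adult DN-MCU, 11.02, 11.24 and 10.91 in neonatal WT and 10.86, 10.88 and 10.71 in neonatal DN-MCU hearts, also without overlap. Its differences were 1.65 (SE 0.30, adjusted p = 0.00108) and 1.20 (SE 0.30, adjusted p = 0.00757), and those of another tested probe set, 0.50 (SE 0.25) and 0.20 (SE 0.25), did not pass. Col9a1, a chain of the cartilage type IX molecule, read 3.90, 3.65 and 3.62 in adult WT, 3.56, 3.67 and 4.18 in adult DN-MCU, 5.24, 5.12 and 5.51 in neonatal WT and 6.05, 6.30 and 6.32 in neonatal DN-MCU hearts. The neonates stood clear of the adults, and DN-MCU neonates clear of WT neonates. The Col9a1 age differences were 1.56 (SE 0.19, adjusted p = 7.70e-05) and 2.42 (SE 0.19, adjusted p = 3.74e-06). Its other probe set was under the filter, between 2.29 and 2.40 in all arrays, so the Col9a1 pattern rests on 1 probe set. Col16a1 read 6.07, 5.51 and 5.41 in adult WT, 5.88, 6.25 and 5.99 in adult DN-MCU, 6.18, 6.77 and 6.06 in neonatal WT and 6.36, 6.60 and 6.11 in neonatal DN-MCU hearts; the ages overlapped, and its difference of 0.67 (SE 0.24, adjusted p = 0.0408) in WT hearts, which passed, became 0.45 (adjusted p = 0.161) without WT neonate 2. That call was also lost without WT adult 2 or 3, WT neonate 1 or DN-MCU neonate 1. Col16a1 in DN-MCU hearts, at 0.32 (SE 0.24, adjusted p = 0.297), did not pass, nor did Col9a3 or Col20a1 in either genotype, at 0.05 and -0.37 in WT hearts.

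The short-chain network collagens of type VIII, made by vessel walls and endothelia, went in opposite directions. Col8a1 signals were 9.68, 10.14 and 9.79 in adult WT, 11.19, 10.02 and 8.55 in adult DN-MCU, 6.60, 6.90 and 6.43 in neonatal WT and 6.68, 6.94 and 6.44 in neonatal DN-MCU hearts. All neonates lay below all adults, and the DN-MCU adults scattered widely, from 8.55 to 11.19. The fall was -3.23 (SE 0.50, adjusted p = 0.000449) in WT and -3.23 (SE 0.50, adjusted p = 0.000464) in DN-MCU hearts, 9.36-fold and 9.41-fold lower, and a second probe set gave -3.38 (SE 0.41) and -3.40 (SE 0.41). Col8a2 signals were 4.28, 3.95 and 4.16 in adult WT, 3.56, 3.87 and 4.24 in adult DN-MCU, 5.82, 6.82 and 5.78 in neonatal WT and 6.25, 6.0 and 6.16 in neonatal DN-MCU hearts. All neonates were higher, by 2.01 (SE 0.27, adjusted p = 0.00017) and 2.24 (SE 0.27, adjusted p = 8.42e-05).

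Transmembrane collagens are anchored in the cell membrane. Of their 3 tested members, Col13a1 and Col25a1 entered the test through the neonates, and Col23a1 alone exceeded the filter level in more than 1 adult array. Col23a1 was higher in neonates in both genotypes. It read 3.31, 3.49 and 3.18 in adult WT, 3.43, 3.29 and 4.20 in adult DN-MCU, 6.90, 8.05 and 7.18 in neonatal WT and 7.63, 7.60 and 7.03 in neonatal DN-MCU hearts. The adult values were near the filter level except in DN-MCU adult 3. The differences were 4.05 (SE 0.32, adjusted p = 4.11e-06) and 3.78 (SE 0.32, adjusted p = 7.16e-06), and both of its other probe sets passed in both genotypes, at 3.63 (SE 0.25) and 2.87 (SE 0.38) in WT hearts. Col13a1, a component of cell adhesion sites and of the nerve-muscle junction, read 2.87, 2.80 and 2.78 in adult WT, 2.75, 2.82 and 2.76 in adult DN-MCU, 4.43, 5.14 and 4.93 in neonatal WT and 3.47, 4.62 and 3.56 in neonatal DN-MCU hearts. It was near background in all adults and higher in all neonates, by 2.01 (SE 0.28, adjusted p = 0.000213) and 1.11 (SE 0.28, adjusted p = 0.00872); without DN-MCU neonate 2 the latter was 0.74 and still passed. Col25a1 read 3.06, 2.86 and 2.91 in adult WT, 2.84, 2.97 and 3.07 in adult DN-MCU, 3.11, 4.15 and 3.74 in neonatal WT and 3.63, 3.20 and 3.02 in neonatal DN-MCU hearts. Its WT difference, 0.72 (SE 0.25, adjusted p = 0.0342), passed but was lost without any 1 of the WT adults or WT neonate 3, and was 0.48 (adjusted p = 0.135) without WT neonate 2. In DN-MCU hearts it was 0.32 (SE 0.25, adjusted p = 0.303). Col26a1, which fits no other class, read 2.75, 2.73 and 2.50 in adult WT, 2.40, 2.68 and 2.37 in adult DN-MCU, 3.81, 3.64 and 4.05 in neonatal WT and 5.25, 4.22 and 3.68 in neonatal DN-MCU hearts. Its adult arrays were all under the filter level and its neonatal arrays above it, with differences of 1.17 (SE 0.32, adjusted p = 0.0123) and 1.90 (SE 0.32, adjusted p = 0.000759). The other Col26a1 probe set was under the filter, between 3.19 and 3.30 in all arrays.

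Promoter windows of 2 genes near background in adults and clearly detected in neonates, Col23a1 and Col11a1, and of Col8a1, which was lower in neonates, are shown so that genes of opposite direction can be compared. Each runs over the 250 bases before the RefSeq start site, read 5′ to 3′ on the strand of the gene, in build GRCm38.p6. Col23a1 lies at chr11:51289670-51289919 and Col11a1 at chr3:114030290-114030539, both on the plus strand, and Col8a1 at chr16:57754738-57754987 on the minus strand. Capitals mark CCAAT (or ATTGG on the other strand), GGGCGG (or CCGCCC) and TATAAA (or TTTATA), motifs searched on both strands, none of which overlap here.
Col23a1: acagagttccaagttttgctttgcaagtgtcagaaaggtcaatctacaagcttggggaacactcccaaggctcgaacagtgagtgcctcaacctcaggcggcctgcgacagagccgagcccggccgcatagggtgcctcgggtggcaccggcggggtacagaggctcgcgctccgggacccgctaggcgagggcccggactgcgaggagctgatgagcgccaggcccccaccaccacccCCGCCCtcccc
Col11a1: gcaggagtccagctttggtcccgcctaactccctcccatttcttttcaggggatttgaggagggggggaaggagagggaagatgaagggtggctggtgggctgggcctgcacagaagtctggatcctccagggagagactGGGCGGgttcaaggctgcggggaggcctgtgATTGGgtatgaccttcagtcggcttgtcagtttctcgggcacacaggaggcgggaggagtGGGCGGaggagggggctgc
Col8a1: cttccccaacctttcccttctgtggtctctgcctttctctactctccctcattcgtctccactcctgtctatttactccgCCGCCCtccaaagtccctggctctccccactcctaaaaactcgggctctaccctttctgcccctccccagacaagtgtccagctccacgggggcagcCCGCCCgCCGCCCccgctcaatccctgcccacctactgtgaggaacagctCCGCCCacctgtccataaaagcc

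The Col23a1 window held 1 GGGCGG, on the other strand, 11 bases before the start. Col11a1 held GGGCGG at 110 and 19 bases and CCAAT, on the other strand, at 79 bases. Col8a1 held 4 GGGCGG, all on the other strand, at 170, 73, 66 and 23 bases. None held TATAAA. Over the 36 windows of the 33 collagen genes with a full entry, 21 held GGGCGG, 13 CCAAT and 5 TATAAA. The same motifs were in 32.7%, 33.8% and 12.4% of all 32851 windows of that length. A match of letters is a description and not a site of binding.

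The next question was whether DN-MCU changed the collagens. In adult hearts 0 of 31 passed in either direction, against 3.41% of all genes higher and 1.69% lower. None of the probe sets that represent the 31 had an unadjusted p under 0.05, beside 2301 of all 11804 genes. None had groups that did not overlap, where 10.3% of all genes lay wholly higher and 8.14% wholly lower. Differences ran from -0.27 for Col6a3 to 0.65 for Col18a1, with a median of 0.08. The smallest adjusted p was 0.348, for Col4a6. Other probe sets differed more in some genes, without passing. That of Col18a1 gave 0.77 (SE 0.32, adjusted p = 0.236), with an unadjusted p under 0.05. That of Col27a1 gave -0.40 (SE 0.24, adjusted p = 0.434), with all DN-MCU adults below WT, where the first probe set gave 0.42. Intervals show what the arrays could resolve: for Col1a1, at 0.39 (SE 0.61, adjusted p = 0.813), the 95% interval was -0.97 to 1.74, whereas for Col4a2, at -0.05 (SE 0.18, adjusted p = 0.934), it was -0.46 to 0.36. A p that misses the threshold does not show that the levels were equal, and the interval of Col1a1 still holds large changes either way. With WT adult 1 and DN-MCU adult 3 both left out, a setting chosen after the data were seen, 1 collagen, Col4a5, was called higher.

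In neonates 0 of 31 passed, against 0.0169% and 0.00847% of all genes. An unadjusted p under 0.05 held for 3 of 31, beside 285 of all 11804 genes. Groups did not overlap for 2 higher genes, Col9a1 and Col18a1, and 2 lower genes, Col4a6 and Col14a1, beside 9.13% and 4.77% of all genes. The Col9a1 difference was 0.93 (SE 0.19, adjusted p = 0.408), with every DN-MCU neonate above every WT neonate, and it was called with array weights, at 0.81 (adjusted p = 0.0132). The other values were 0.25 (SE 0.35) for Col18a1, -0.55 (SE 0.19) for Col4a6 and -0.24 (SE 0.30) for Col14a1. A second tested probe set of each gave 0.13 (SE 0.32), 0.05 (SE 0.30) and -0.03 (SE 0.25), all with overlapping groups. Col13a1 differed by -0.95 (SE 0.28), with DN-MCU neonate 2 inside the WT range. It was lower in the DN-MCU array at each of the 3 replicate numbers, which are not established as pairs. With a replicate block for the neonates, added after the data were seen, its SE was 0.17 (adjusted p = 0.387). In that fit the SE was 0.20 for Col9a1 (adjusted p = 0.634) and 0.22 for Col4a6. For Col1a1, Col1a2 and Col3a1 the neonatal differences were -0.05, -0.16 and -0.04. Other probe sets differed more in some genes. That of Col1a1 gave -0.50 (SE 0.38) and that of Col4a1 gave -0.21 (SE 0.22), both with all DN-MCU neonates below WT, and that of Col11a1 gave 0.79 (SE 0.17, adjusted p = 0.57) with all above. Epicardial and mesothelial markers lay below WT in DN-MCU neonates without overlap for 6 of 8 genes, none passing; their mean was 7.13 to 7.92 in WT and 6.38 to 6.74 in DN-MCU neonates. Their part in the collagen values was not tested.

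The genotype effect was also compared between ages, as the difference of the 2 effects. It passed for 0 of 31, against 0.237% and 0.712% of all genes. An unadjusted p under 0.05 was found for 3 of 31, near the share of all genes, 1159 of 11804. The 3 collagens were Col4a6 at -0.92 (SE 0.27, adjusted p = 0.235), Col9a1 at 0.86 (SE 0.27, adjusted p = 0.264) and Col13a1 at -0.91 (SE 0.40, adjusted p = 0.523). The second Col4a6 probe set gave -0.08 (SE 0.42). Col9a1 was called without DN-MCU adult 3. Col4a6, whose age call was made in WT hearts only, was called as lower with array weights and with WT adult 1 and DN-MCU adult 3 both left out. In the other settings no collagen with an age call in 1 genotype only was shown to differ between genotypes.

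**Figure D3:**
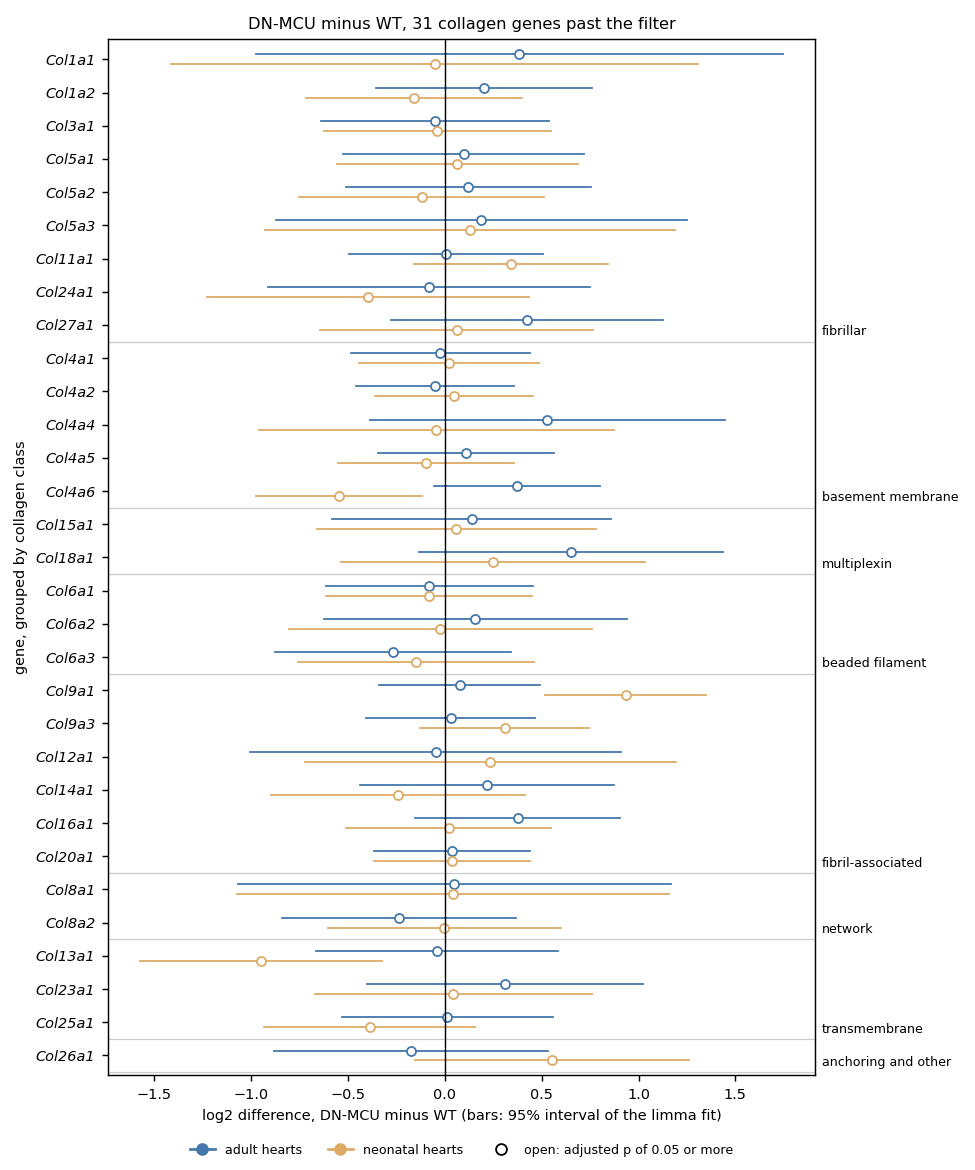
Log2 difference between DN-MCU and WT hearts for the 31 tested collagen genes, by class, in adults (blue) and neonates (orange); points are limma estimates and bars 95% intervals. All points are open, since none passed, and the intervals of most genes span 0.

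Within a group, many collagens were highest or lowest in the same heart. WT adult 1 held the highest value of its group for 27 of the 31 collagens (87.1%), against 49.9% of all genes. DN-MCU adult 2 held the lowest for 19 (61.3%, against 35.8%). The mean of the 9 fibrillar genes was 8.36, 7.76 and 7.88 in adult WT, 8.42, 7.66 and 8.36 in adult DN-MCU, 9.32, 9.79 and 9.32 in neonatal WT and 9.45, 9.57 and 9.36 in neonatal DN-MCU hearts. Among neonates, WT neonate 2 was highest for 25 of 31 (80.6%, against 46.4%). WT adult 1 and WT neonate 2 also stood out in other cell markers. Mean epicardial and mesothelial signal was 6.56 in WT adult 1, against 4.58 and 4.91 in the other WT adults, and 7.92 in WT neonate 2, against 7.14 and 7.13. WT adult 1 also had the highest mean of the 4 adipocyte markers, 9.64, and of the 8 fibroblast markers among WT adults, 11.33 against 10.98 and 10.99. DN-MCU adult 3 had high fibrillar collagens but the lowest fibroblast mean of the adults, 10.49. DN-MCU adult 2, low in collagens, had an epicardial and mesothelial mean of 5.14, close to the 5.11 of DN-MCU adult 1, with 4.86 in DN-MCU adult 3. The adipocyte mean of DN-MCU adult 2 was the highest of the group, 9.08 against 8.41 and 7.86. In these single arrays the order of the hearts by collagens was not always their order by a marker mean. Whether the tissue taken differed between hearts was not tested.

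**Figure D4:**
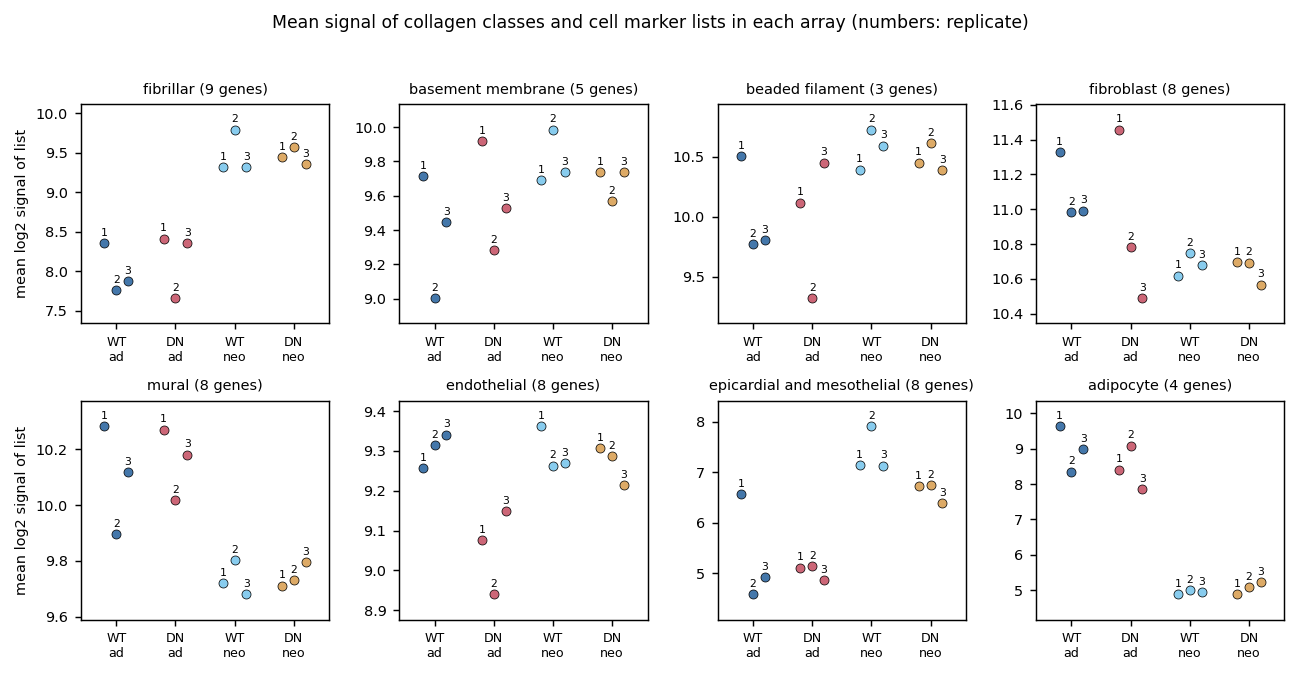
Mean log2 signal of 3 collagen classes and 5 cell marker lists in each array, as points by group, labelled with the replicate number. Fibrillar collagens are higher in all neonatal arrays, fibroblast markers are not, and WT adult 1 is high among WT adults for collagens, fibroblast, epicardial and adipocyte markers.

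Markers of the cells that could carry these collagens did not move as one with age. Their counts are to be read beside those of all genes tested. Of all genes, 27.8% were higher and 17.2% lower in WT neonates, and 29.1% and 17.6% in DN-MCU neonates. Counts in such short lists say little beside these shares. Of 8 fibroblast markers, 1, the transcription factor Tcf21, was higher in neonates and 4 were lower in both genotypes; their mean lay between 10.49 and 11.46 in adults and between 10.57 and 10.75 in neonates. Epicardial and mesothelial markers were higher for 5 of 8 in both genotypes, with means of 4.58 to 6.56 in adults and 6.38 to 7.92 in neonates. Of 8 mural markers 2 were higher and 2 lower in WT neonates, with 1 and 3 for DN-MCU, and of 8 endothelial markers 1 was higher and 2 lower, with 2 and 1 for DN-MCU. Cardiomyocyte markers were lower for 4 of 8 and adipocyte markers for 3 of 4 in both genotypes, with adipocyte means of 7.86 to 9.64 in adults and 4.88 to 5.22 in neonates. Dcn and Lum count both as fibroblast markers and as collagen-binding proteoglycans. Whether a shift of cell types set the collagen differences was not tested.

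Enzymes and partners of collagen were taken from 5 lists. A rise or fall between ages is again that of neonates against adults. Of 27 tested genes of collagen biosynthesis and crosslinking, 12 were higher and 4 lower at birth in WT hearts, and 11 and 5 in DN-MCU hearts, beside shares of all genes of 27.8% and 17.2% in WT and 29.1% and 17.6% in DN-MCU hearts. Pcolce2, an enhancer of procollagen processing, was at 10.18 ± 0.06 in WT adults and 5.49 ± 0.16 in WT neonates (mean ± SD, n = 3), and fell by 4.70 (SE 0.21, adjusted p = 8.29e-08). P4ha1, a subunit of the prolyl hydroxylase that stabilises the helix, was lower in WT neonates by 1.44 (SE 0.15, adjusted p = 2.25e-05), at 7.29 ± 0.14 against 8.72 ± 0.11 in WT adults. P4ha3, an alternative subunit, was higher in WT neonates by 2.39 (SE 0.16, adjusted p = 1.46e-06), at 5.68 ± 0.14 against 3.29 ± 0.15. The subunits of this enzyme thus went in both directions. P4ha3 was near the filter level in WT adults.

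Among 13 genes of collagen turnover 3 were higher and 3 lower in WT neonates, near the shares of all genes, 27.8% and 17.2%, against which the next lists are also to be read. Mmp14, a membrane-bound collagenase, was at 6.26 ± 0.49 in adults and 9.91 ± 0.27 in neonates. It was higher in neonates by 3.65 (SE 0.31, adjusted p = 6.66e-06), and Mmp16 by 2.38 (SE 0.26, adjusted p = 4.34e-05). Timp4, an inhibitor of such proteases prominent in adult heart, was lower in neonates by 2.92 (SE 0.39, adjusted p = 0.000166). Of 13 collagen-binding proteoglycans and fibril regulators 3 were higher and 5 lower. Fn1, fibronectin, rose by 1.99 (SE 0.25, adjusted p = 0.000109), while Prelp and Dcn, leucine-rich proteoglycans that coat fibrils, fell by 2.69 (SE 0.24, adjusted p = 8.82e-06) and fell by 1.30 (SE 0.20, adjusted p = 0.00046). Of 5 collagen receptors Ddr1 rose by 1.69 (SE 0.25, adjusted p = 0.000296) and the integrin chain Itga1 by 1.06 (SE 0.19, adjusted p = 0.00127), and Ddr2, the discoidin receptor for fibrillar collagen in fibroblasts, fell by 2.00 (SE 0.60, adjusted p = 0.0194). Of 12 basement membrane partners 5 were higher and 2 lower; laminin chain Lamb1 rose by 1.52 (SE 0.13, adjusted p = 5.32e-06) and the crosslinking peroxidase Pxdn by 1.67 (SE 0.16, adjusted p = 1.26e-05), and Lamb2 fell by 1.97 (SE 0.20, adjusted p = 2.02e-05). List medians in WT hearts were 0.54, 0.03, -0.35, -0.14 and 0.32 in the order given, against 1.02 for the collagens and 0.16 for all genes. For the 27 collagens that exceeded the filter level in more than 1 array at each age the median was 0.89.

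**Figure D5:**
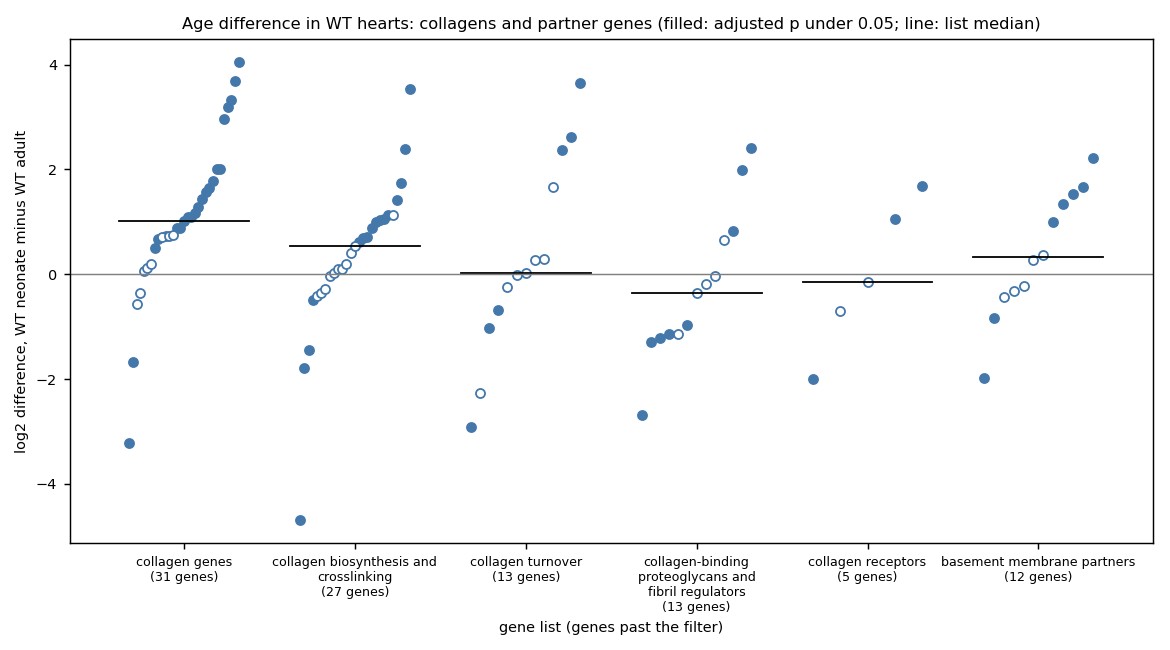
Log2 difference between WT neonates and WT adults for the 31 tested collagens and the 5 partner lists; each point is a gene, filled where it passed, and lines are list medians. The collagen median of 1.02 is the highest line, and it includes 4 genes that entered the test through the neonates. Each partner list holds filled points on both sides of 0.

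DN-MCU adults differed from WT adults in 3 of the 27 biosynthesis genes, and in none of the other 4 lists, where 3.41% of all genes were higher and 1.69% lower. P3h2, a prolyl 3-hydroxylase that acts mainly on type IV collagen, was 5.23, 4.68 and 5.17 in WT and 7.53, 6.58 and 7.0 in DN-MCU adults, without overlap, a rise of 2.01 (SE 0.27, adjusted p = 0.00212). P4ha1 was 8.67, 8.85 and 8.65 and 9.36, 9.56 and 9.34, also without overlap, a rise of 0.70 (SE 0.15, adjusted p = 0.0213). Adamts3, a procollagen N-propeptidase, was 5.44, 5.55 and 5.40 and 4.21, 3.48 and 4.28, and fell by 1.47 (SE 0.20, adjusted p = 0.00214). None of the 3 passed when the fit held only the adults (adjusted p = 0.0687, 0.189 and 0.0978), and P4ha1 was also lost with a replicate block for the neonates (0.0673), with the replicate numbers of both ages as a block (0.105) and without WT adult 1 (0.0509) or WT adult 3 (0.0876). In neonates no gene of the 5 lists passed. An unadjusted p under 0.05 held for 2 of 27 biosynthesis genes and 1 of 13 turnover genes, beside 285 of all 11804 genes.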

How the data were processed

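Total RNA of 12 whole mouse hearts, 3 in each of 4 groups, was hybridised to a 1-colour 3′ expression array. The deposited table holds log2 values, already normalized by the authors; the scale was read from their range. No label names the algorithm; Partek appears, per the submitters' processing notes, without a role. Control probe sets (64 of 45101) were removed. Gene symbols came from GEO's platform annotation: 34945 probe sets had 1 gene, 932 several and 9160 none, and 34741 matched the RefSeq gene table, with no symbol changed.

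Probe sets past the dimness filter (24176) went into a limma fit (version 3.58.1, R version 4.3.3) of 4 group means over all 12 arrays, 5 contrasts and Benjamini-Hochberg adjustment over all probe sets within a contrast; adjusted p under 0.05 was called. Adjusted p-values and SEs in the report are from this fit unless another is named, and intervals are 95%. Pooling all groups gives them 1 spread, although adult arrays scattered more. The labels call the replicates biological without naming their source further, so p-values measure the spread between these arrays. Deviations from the group mean had small positive correlations in same-numbered neonatal arrays of the 2 genotypes (0.133, 0.223 and 0.283). In differently numbered ones they ran from -0.292 to 0.0902. Same-numbered adult arrays varied in sign (-0.381, 0.410 and -0.428). With 3 arrays a group these correlations depend on each other, so they do not establish a shared block. The labels do not say what the numbers mark.

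The members and the partner and marker lists were chosen with earlier results of these data known. All collagens could be named; of each partner list, at most the 3 genes with the smallest limma p in a contrast where any passed. Promoters came from RefSeq, GRCm38.p6. Calculations were tested on simulated data. Alternatives covered normalization, filter, probe set choice, array weights, fitted groups, the replicate block and each array left out.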

Additional observations from a re-analysis of the deposited data

How the results depend on the processing

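No collagen that was called changed direction under any alternative that tested it. Of the 23 calls between WT neonates and WT adults 18 remained in every setting that tested the gene, and of the 19 in DN-MCU hearts 16 did. Both numbers include Col11a1, Col13a1 and Col26a1, which were tested because they were high in neonates. That their calls remained is thus no independent support. The stricter filter, at a log2 signal of 7.25, left Col4a6, Col8a2, Col9a1, Col13a1 and Col26a1 untested. All of these count among the 18, and all but Col4a6 among the 16. Col26a1 was also untested where probe sets without the suffixes _s_at, _x_at or _a_at were preferred. Leaving out 1 array at a time gave 17 to 22 genes higher and 2 lower in WT neonates, and 15 to 19 higher and 2 to 4 lower in DN-MCU neonates, where the 4 lower genes, without DN-MCU adult 2, included Col20a1 and Col5a3. Genotype counts of 0 became 1 in these settings. In adults Col4a5 was higher with WT adult 1 and DN-MCU adult 3 both left out, a setting added after seeing the data. In neonates Col9a1 was higher with array weights. The difference of the genotype effects was called for 1 higher gene, Col9a1, without DN-MCU adult 3 and without both arrays, and for 1 lower gene, Col4a6, with array weights and without both arrays. Col14a1 lost its call in both genotypes, at 0.50 and 0.20, where probe sets without the suffixes _s_at, _x_at or _a_at were preferred. The Col14a1 probe set avoided there has the suffix _a_at.

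A replicate block for the neonates was added after seeing the data, because deviations of their same-numbered arrays had small positive correlations. It gave 19 collagens higher in WT and 17 in DN-MCU neonates. In WT hearts Col25a1 (adjusted p = 0.0543), Col27a1 (0.0651) and Col4a2 (0.0772) were lost and Col24a1 was gained. The planned replicate block over both ages gave 19 and 16.

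Adult signals of Col11a1, Col13a1, Col23a1, Col25a1 and Col26a1 lay mostly at or near the filter level, which limits the size of their differences. Probe sets of 1 gene disagreed in size, so that a log2 difference describes a probe set. With 3 arrays a group and wide adult spread, differences between adult genotypes inside the printed intervals could not be resolved.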

Other observations

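Genes known from neighbouring organs varied widely between adult hearts. The airway gene Scgb1a1 ran from 4.27 to 13.11 in adults and from 3.47 to 3.86 in neonates, and was lower in neonates in both genotypes, while the 4 other lung markers were under the filter. Rag1, a gene of developing lymphocytes and the tested marker of thymus, was 9.86 in DN-MCU adult 1. That array was also the only one of the 12 in which Col4a3 exceeded the filter level, at 4.82. No relation between these values was tested. Of the remaining lists, 1 of 2 erythroid and 1 of 4 Schwann cell markers were higher in WT neonates and none was called in DN-MCU neonates, and 1 of 3 skeletal muscle markers was lower in both genotypes. Over all genes 27.8% were higher and 17.2% lower in WT neonates, and 29.1% and 17.6% in DN-MCU neonates. Counts in lists this short say little beside these shares.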
